A study of Homo sapiens with 36 samples.

Results

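The genes described here encode the collagens, the laminins and their cell surface receptors, the integrins and the discoidin domain receptors. They were chosen by symbol alone: every human protein-coding gene with the symbol of a collagen alpha chain, a laminin alpha, beta or gamma chain, a numbered integrin alpha or beta subunit, or DDR1 or DDR2. Of 20056 protein-coding genes named by RefSeq, 77 had such a symbol, namely 44 collagens, 12 laminin chains, 19 integrin subunits and 2 discoidin domain receptors. After the filter on low values that the authors applied, 59 of them stood among 16431 genes in the NT2/D1-A4 experiment, 61 among 17035 in the 2102EP-C1 experiment and 63 among 16459 in the 2102EP-C1 knockdown experiment. Altogether 57 were listed in all 3 experiments and 12 in none: COL3A1, COL6A5, COL10A1, COL11A2, COL15A1, COL19A1, COL20A1, ITGA8, ITGA10, ITGB6, ITGB7 and LAMB4. COL4A3 and COL8A1 were listed in NT2/D1-A4 only, COL8A2, ITGA11, ITGB3 and ITGB4 in both 2102EP-C1 experiments and not in NT2/D1-A4, and COL6A6 and ITGA4 in the knockdown experiment only.

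The study asked how targeting KDM6A and KDM6B, the demethylases that remove the repressive mark H3K27me3, changes refractory testicular germ cell tumor cells and their response to cisplatin. RNA was sequenced from 36 libraries, 3 biological replicates in each of 4 arms of 3 experiments. NT2/D1-A4 and 2102EP-C1 are cisplatin-resistant embryonal carcinoma lines, each a single resistant clone of its parental line, and the 4 arms of each were untreated cells (control), cells exposed for 6 h to 0.5 µM cisplatin, cells kept for 3 days in GSK-J4 at 1 µM, and cells that received the inhibitor first and cisplatin afterwards. The control libraries of both lines are labelled VC, and the study calls them untreated vehicle control. Untreated therefore means here without GSK-J4 and without cisplatin. GSK-J4 is a cell-permeable inhibitor of KDM6A and KDM6B. In the knockdown experiment, 2102EP-C1 cells carried either the empty vector (pLKO1) or 1 shRNA against KDM6A together with 1 against KDM6B (sh6A+6B), each without and with 0.5 µM cisplatin for 6 h and without GSK-J4. All arms therefore shared the resistant background, and only 1 shRNA was used per target. Per the methods of the study, RNA was taken a day after the cisplatin treatment and not at the end of the exposure. The shRNAs were delivered by a pair of lentiviruses under selection with puromycin and neomycin. The methods list empty vectors with both resistances but do not say which of them, and which selection, the sequenced pLKO1 cells received, so that an effect of vector or selection and one of knockdown cannot be told apart.

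Collagens are trimers of alpha chains that form fibrils, networks or membrane-spanning anchors, and laminins are trimers of 1 alpha, 1 beta and 1 gamma chain that assemble, with type IV collagen, into the basement membrane. Cells hold these proteins through integrins, which pair an alpha with a beta subunit, and sense triple-helical collagen through the discoidin domain receptors, which are receptor tyrosine kinases. Basement membrane proteins are laid down early in the embryo, and embryonal carcinoma is the tumor counterpart of such early pluripotent cells.

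The reference sequences of 4 stretches next to member genes are given first because the results below turn on these genes: they show how close the partners of 2 head-to-head type IV collagen pairs lie, and what stands before DDR2 and COL17A1, which rose with GSK-J4 in both lines. Sequences are from RefSeq on GRCh38.p14, written 5′ to 3′ in the direction of the second gene of a pair or of the gene named, with motif matches on either strand in capitals. The motifs searched were the GC box, whose letters are GGGCGG, the box named for its own letters CCAAT, and the TATA box, searched as TATAAA.
Between COL4A1 and COL4A2, chr13:110307158-110307283, plus strand: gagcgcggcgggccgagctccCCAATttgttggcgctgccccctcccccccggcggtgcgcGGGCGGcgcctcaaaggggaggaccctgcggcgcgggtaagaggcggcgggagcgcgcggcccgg
Upstream of COL4A5, chrX:108439588-108439837, plus strand: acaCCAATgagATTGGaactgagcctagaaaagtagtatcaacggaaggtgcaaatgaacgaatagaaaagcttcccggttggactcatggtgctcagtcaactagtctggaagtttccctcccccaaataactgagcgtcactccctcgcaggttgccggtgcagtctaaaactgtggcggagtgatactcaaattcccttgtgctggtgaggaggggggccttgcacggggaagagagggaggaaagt
Upstream of DDR2, chr1:162630613-162630862, plus strand: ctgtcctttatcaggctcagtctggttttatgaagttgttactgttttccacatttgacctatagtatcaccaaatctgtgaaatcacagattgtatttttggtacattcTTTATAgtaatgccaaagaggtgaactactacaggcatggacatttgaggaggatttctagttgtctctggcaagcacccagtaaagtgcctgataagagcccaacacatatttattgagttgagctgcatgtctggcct
Upstream of COL17A1, chr10:104085881-104086130, minus strand: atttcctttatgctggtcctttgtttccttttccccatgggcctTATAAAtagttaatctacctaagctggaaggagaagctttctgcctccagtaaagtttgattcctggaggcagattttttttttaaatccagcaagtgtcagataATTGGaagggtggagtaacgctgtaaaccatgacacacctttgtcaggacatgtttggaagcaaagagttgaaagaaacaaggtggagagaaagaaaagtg

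The stretch between COL4A1 and COL4A2 was the whole of the 126 bases that separated their start sites, with a GC content of 80.2% and 20 CpG. The starts of COL4A6 and COL4A5 lay 379 bases apart, and the 250 bases next to COL4A5 had a GC content of 51.2% and 8 CpG. The 250 bases before DDR2 and COL17A1 had GC contents of 40.0% and 40.4% and held 0 and 1 CpG. The first of the 3 listed starts of DDR2 was used. The letters of a GC box stood in the COL4A1 to COL4A2 stretch only and those of a CCAAT box in all but the DDR2 window. The letters of a TATA box stood in the DDR2 and COL17A1 windows. Matches counted on either strand and at any distance from the start, so they do not show a working promoter element. Of 34943 distinct promoter windows of 250 bases, 42.5% held a GC box, 32.0% a CCAAT box and 10.8% a TATA box, and over 126 bases 34.5% held a GC box and 21.1% a CCAAT box. The letters TGANTCA (AP-1 site, 6.59% of windows of 250 bases) and TGATGNAA (the C/EBP-ATF response element, 3.15%) had 0 matches in the windows printed. A promoter entry existed for 56 of the 77 genes and not for ITGA3.

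Values are log2 CPM, that is log2 reads of a gene relative to the size of its library, as the authors normalized them. A gene is said to have risen or fallen where its fold change was over 1.3 and its adjusted p under 0.05 by limma-trend, the tool and thresholds taken over all genes of an experiment. Library depth was 26.8 to 49.5 M counted reads in NT2/D1-A4, 30.3 to 53.6 M in 2102EP-C1 and 79.4 to 100.9 M in the knockdown experiment. In the sh6A+6B cells KDM6A stood at 6.09 to 6.20 against 7.15 to 7.17 in pLKO1 (log2 change −1.01) and KDM6B at 3.51 to 3.75 against 4.61 to 4.66 (−1.01). With GSK-J4 alone KDM6B stood at 4.45 to 4.61 against 3.60 to 3.77 in control libraries of NT2/D1-A4. In 2102EP-C1 it stood at 5.16 to 5.43 against 4.45 to 4.67. KDM6A stood at 6.60 to 6.62 against 6.54 to 6.56 and at 7.13 to 7.24 against 7.10 to 7.14 in the same libraries. Of 15 embryonal carcinoma markers, 14 were listed in every experiment, with summed levels of 9009 to 14553 CPM, and they were lower with GSK-J4 than in control cells, at 9769 to 10011 against 11365 to 11581 CPM in NT2/D1-A4 and at 12556 to 12907 against 14162 to 14553 CPM in 2102EP-C1. Other lineages were listed in part: 6 or 7 of 13 endoderm markers, without SOX17, GATA6 and FOXA2, 3 or 4 of 10 trophoblast markers, without CDX2, CGA and ELF5, and 8 of 12 mesenchymal markers, without PRRX1, LUM, DCN and FAP. These are bulk libraries, in which fewer cells of a type and less RNA per cell cannot be told apart.

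In untreated cells LAMC1, ITGA6 and either ITGB1 or ITGB5 were the 3 most abundant members per kilobase. Per kilobase of exon, NT2/D1-A4 had most ITGB1, the beta subunit shared by the collagen and laminin receptors, at 41.1 ± 0.896 CPM per kb (SD, n = 3), then LAMC1, the gamma chain of most laminins, at 35.7 ± 1.83 and ITGA6, a laminin-binding subunit, at 34.0 ± 0.176, the last 2 differing by about the spread of LAMC1. In 2102EP-C1 the order was LAMC1 at 111 ± 1.22 CPM per kb, ITGB5, a partner of the alpha V subunit, at 38.7 ± 0.275, ITGA6 at 32.1 ± 1.11 and ITGB1 at 23.8 ± 0.0866. The pLKO1 cells had 138 ± 0.420 CPM per kb of LAMC1, 40.0 ± 0.143 of ITGA6 and 38.2 ± 0.251 of ITGB5. LAMC1 therefore led in both sets of 2102EP-C1 cells and stood below ITGB1 in NT2/D1-A4. The place of ITGB1 below ITGA6 and ITGB5 in 2102EP-C1 cells rested on the exon lengths used. These were 11.12 kb for ITGB1, 6.05 kb for ITGA6 and 4.795 kb for ITGB5. Without division by length, ITGB1 stood above both. In untreated 2102EP-C1 cells it had 264 CPM, against 194 for ITGA6 and 185 for ITGB5. In pLKO1 cells ITGB1 had 281 CPM, against 242 for ITGA6 and 183 for ITGB5.

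In untreated cells many members stood at different levels in the 2 lines. No test was made between the lines, because each experiment was normalized separately. Among 57 members listed in all experiments, 6 were more than 2 times higher in NT2/D1-A4 with no overlap of the libraries and 22 were more than 2 times higher in 2102EP-C1, beside 6.70% and 10.3% of 15663 genes. With pLKO1 as the 2102EP-C1 control the counts were 5 and 26. The median difference was −0.45 (NT2/D1-A4 minus 2102EP-C1, log2) over the members and −0.02 over all genes. The 8 listed mesenchymal markers summed to 1273 to 1329 CPM in the same NT2/D1-A4 libraries and to 154 to 157 CPM in those of 2102EP-C1, and their part in the differences was not tested.

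The 6 higher in NT2/D1-A4 included 3 type IV collagen chains, COL4A2 by 1.57, COL4A6 by 1.41 and COL4A1 by 1.17 on the log2 scale. The others were COL12A1, a fibril-associated collagen, by 2.50, COL7A1, the anchoring fibril collagen, by 1.36 and LAMA4, a laminin alpha chain, by 1.1, or by 0.54 with pLKO1 as the 2102EP-C1 control. LAMA3 and LAMB3, chains of the epithelial laminin-332, were higher in 2102EP-C1. LAMA3 was lower in NT2/D1-A4 by −2.90 and LAMB3 by −2.14 on the log2 scale. ITGB2, the leukocyte integrin beta subunit, differed by −2.79, ITGA7, a laminin-binding subunit, by −2.72, LAMC1 by −1.64, COL1A2 by −1.72 and DDR1 by −1.09, each lower in NT2/D1-A4. In NT2/D1-A4 control libraries LAMB3 rested on 11 or 12 reads and ITGB2 on 10 to 17. ITGA3 (0.59), ITGB1 (0.79) and DDR2 (−0.69) differed by less than 2 times. DDR2 stood at 1.90 to 1.94 in the pLKO1 libraries against 0.25 to 0.59 in the untreated 2102EP-C1 libraries, and with pLKO1 as the 2102EP-C1 control it differed by −2.23.

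**Figure D1:**
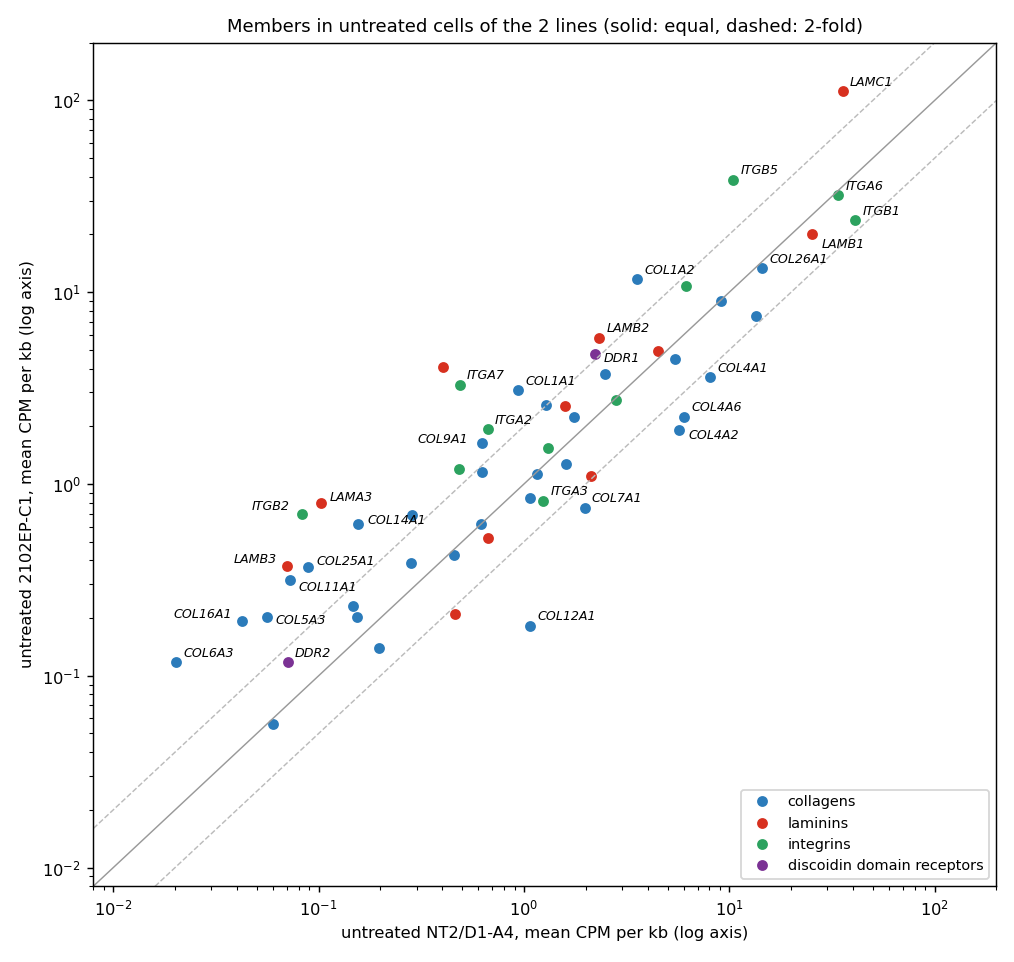
Mean CPM per kb of each member (points, coloured by family) in untreated NT2/D1-A4 cells (horizontal axis) and untreated 2102EP-C1 cells (vertical axis), 3 libraries each, both axes on a log scale. The solid line marks equal levels and the dashed lines a difference of 2 times, and more members lie beyond the upper dashed line (higher in 2102EP-C1) than beyond the lower one.

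With GSK-J4 alone, 14 of 59 members rose and 2 fell in NT2/D1-A4, where 13.8% of all genes rose and 6.48% fell, and 12 of 61 rose and 1 fell in 2102EP-C1, where 7.79% rose and 3.12% fell. The share of members that rose was 23.7% in NT2/D1-A4 and 19.7% in 2102EP-C1. The median log2 change was 0.21 over the members and 0.01 over all genes in NT2/D1-A4, and 0.13 and 0.00 in 2102EP-C1. In all, 6 rose in both lines, DDR2, ITGA3, COL17A1, COL12A1 and LAMA2 among them, which is 42.9% of those that rose in NT2/D1-A4 and 50% of those in 2102EP-C1, beside 33.7% and 57.5% over all genes that rose. COL27A1 fell in both.

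DDR2, the discoidin domain receptor for fibrillar collagen (chr1:162630863-162787405), stood at −0.12, −0.14 and −0.69 in the NT2/D1-A4 control libraries, on 28, 35 and 16 reads, and at 3.19, 3.26 and 3.25 with GSK-J4. The arms did not overlap, and DDR2 rose by 3.55 ± 0.15 on the log2 scale (SE, n = 3 and 3, limma-trend adjusted p = 6.2e-13), a fold of 11.7 on the deposited scale. In 2102EP-C1 it stood at 0.27, 0.25 and 0.59 in control cells and at 4.21, 3.96 and 4.17 with GSK-J4, again without overlap, a rise of 3.74 ± 0.11 (adjusted p = 1.7e-19). DDR2 was the member with the largest change in both lines, while DDR1, the family's other receptor, differed by 0.04 ± 0.06 (adjusted p = 0.62) in NT2/D1-A4 and by −0.09 ± 0.05 (adjusted p = 0.21) in 2102EP-C1.

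ITGA3, which pairs with ITGB1 to bind laminin-332 and laminin-511, stood at 2.73, 2.64 and 2.48 in NT2/D1-A4 control cells and at 3.96, 3.96 and 4.09 with GSK-J4. It rose by 1.38 ± 0.10 (adjusted p = 1.1e-09). In 2102EP-C1 the control libraries held 2.01, 2.09 and 1.98 and the GSK-J4 libraries 3.22, 3.24 and 2.98, a rise of 1.12 ± 0.10 (adjusted p = 6.7e-10), and in neither line did the arms overlap. The other laminin-binding alpha subunits did not share this in both lines. ITGA7 rose by 0.49 ± 0.14 (adjusted p = 0.0083) in NT2/D1-A4 and differed by −0.04 ± 0.07 (adjusted p = 0.72) in 2102EP-C1, and ITGA6 differed by 0.11 and −0.12, under the fold threshold. ITGB1, at 8.87, 8.80 and 8.84 in NT2/D1-A4 control cells and 8.75, 8.77 and 8.74 with GSK-J4, differed by −0.08, and in 2102EP-C1, at 8.05, 8.04 and 8.04 against 8.13, 8.12 and 8.27, by 0.13, both under the fold threshold.

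COL17A1, a membrane-spanning collagen of hemidesmosomes (chr10:104031286-104085880), stood at 2.96, 2.87 and 2.98 in NT2/D1-A4 control cells and at 4.26, 4.13 and 4.32 with GSK-J4. It rose by 1.3 ± 0.07 (adjusted p = 4.3e-11) without overlap of the arms. In 2102EP-C1 it stood at 4.05, 3.91 and 3.88 and at 4.56, 4.39 and 4.52, a smaller rise of 0.54 ± 0.07 (adjusted p = 8.2e-07), also without overlap. COL12A1 (chr6:75084326-75206053) went the other way in size. In 2102EP-C1 it stood at 1.13, 1.31 and 1.21 in control cells and at 3.24, 2.93 and 3.15 with GSK-J4, a rise of 1.89 ± 0.11 (adjusted p = 2.5e-13). In NT2/D1-A4, where it started higher at 3.93, 3.73 and 3.48, it reached 3.85, 4.23 and 4.21, the arms overlapped, and the rise of 0.39 ± 0.11 (adjusted p = 0.006) was not called without control replicate 3 (0.27), GSK-J4 replicate 2 (0.32) or GSK-J4 replicate 3 (0.33). Differences between the lines in these changes were not tested.

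LAMA2, the alpha chain of laminin-211, stood at 5.62, 5.49 and 5.51 in NT2/D1-A4 control cells and at 5.90, 6.07 and 6.04 with GSK-J4, a rise of 0.46 ± 0.06 (adjusted p = 3.8e-06). In 2102EP-C1 it stood at 5.65, 5.65 and 5.71 and at 6.25, 6.20 and 6.25, a rise of 0.56 ± 0.04 (adjusted p = 2.2e-10). In both lines every GSK-J4 library lay above every control library. LAMA3 and LAMB3, chains of laminin-332, each rose in 1 line, LAMA3 by 0.56 ± 0.15 (adjusted p = 0.0058) in NT2/D1-A4 and LAMB3 by 0.56 ± 0.15 (adjusted p = 0.0039) in 2102EP-C1.

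Of the 11 fibrillar collagens 9 were listed, and 1 rose and 2 fell in NT2/D1-A4 beside the 13.8% and 6.48% of all genes. In 2102EP-C1 0 rose and 1 fell, beside 7.79% and 3.12%, and with sh6A+6B 3 rose and 1 fell, beside 6.34% and 5.74%. Their median log2 changes were −0.12, −0.12 and 0.09. COL27A1, a fibrillar collagen of cartilage, stood at 3.25, 3.42 and 3.22 in 2102EP-C1 control cells and at 2.81, 2.85 and 2.79 with GSK-J4, a fall of −0.48 ± 0.08 (adjusted p = 3.7e-05). In NT2/D1-A4 it stood at 3.35, 3.38 and 3.28 and at 3.13, 2.69 and 2.97, a fall of −0.41 ± 0.09 (adjusted p = 0.0013) that was not called without GSK-J4 replicate 2 (−0.29) or when scaled by library size only (−0.36). COL1A2, a chain of type I collagen, fell in NT2/D1-A4 from 4.27, 4.04 and 4.21 to 3.75, 3.70 and 3.69, by −0.46 ± 0.07 (adjusted p = 1.5e-05). In 2102EP-C1 it differed by −0.16 ± 0.04 (adjusted p = 0.0023), under the fold threshold, and COL1A1, the other chain of the same trimer, differed by −0.24 in NT2/D1-A4 and 0.36 in 2102EP-C1, neither called. COL23A1, a membrane-spanning collagen, rose in NT2/D1-A4 from 0.84, 0.83 and 0.61 to 1.67, 1.39 and 1.31, by 0.70 ± 0.13 (adjusted p = 0.00022), without overlap. COL14A1, a fibril-associated collagen, rose in 2102EP-C1 from 2.41, 2.62 and 2.71 to 3.41, 3.22 and 3.45, by 0.78 ± 0.10 (adjusted p = 8.1e-07), without overlap.

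The remaining members that rose with GSK-J4 did so in 1 line. In NT2/D1-A4 LAMB2, a laminin beta chain, went from 3.80, 3.82 and 3.63 to 4.19, 4.1 and 4.17, by 0.40 ± 0.08, and was under the fold threshold without control replicate 3 (0.34). COL7A1 went from 4.33, 4.42 and 3.89 to 5.01, 4.37 and 4.67, by 0.47 ± 0.14 (adjusted p = 0.0079), with overlapping arms, and was not called without control replicate 3 (0.31, adjusted p = 0.069) or GSK-J4 replicate 1 (0.31, adjusted p = 0.065). COL2A1 rose by 0.49 ± 0.17 (adjusted p = 0.023) and was not called without control replicate 1 (0.36, adjusted p = 0.12) or GSK-J4 replicate 1 (0.38, adjusted p = 0.11). COL4A3 and COL4A5 are described with the other type IV chains below.

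In 2102EP-C1 COL22A1, a fibril-associated collagen of tissue junctions, went from 0.55, 0.53 and 0.57 to 1.34, 1.07 and 1.13, by 0.63 ± 0.18 (adjusted p = 0.0078), without overlap. COL28A1 rose by 0.39 ± 0.08 (adjusted p = 0.00072) and was under the fold threshold by voom (0.38) and without control replicate 1 (0.38), control replicate 2 (0.34) or GSK-J4 replicate 1 (0.34). COL6A3 went from 0.43, 0.43 and 0.40 to 1.03, 0.93 and 0.72, by 0.48 ± 0.16 (adjusted p = 0.02), and was not called without control replicate 3 (0.47, adjusted p = 0.053) or GSK-J4 replicate 1 (0.41, adjusted p = 0.081). ITGB3, the beta subunit of the vitronectin receptor, rose by 0.53 ± 0.21 (adjusted p = 0.048) with overlapping arms, and the call was kept in 3 of 12 fits that each left out 1 library, missing without control replicates 2 and 3, GSK-J4 replicates 1 and 2, any cisplatin library, or replicates 2 and 3 of the arm given both agents (adjusted p = 0.053 to 0.24).

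**Figure D2:**
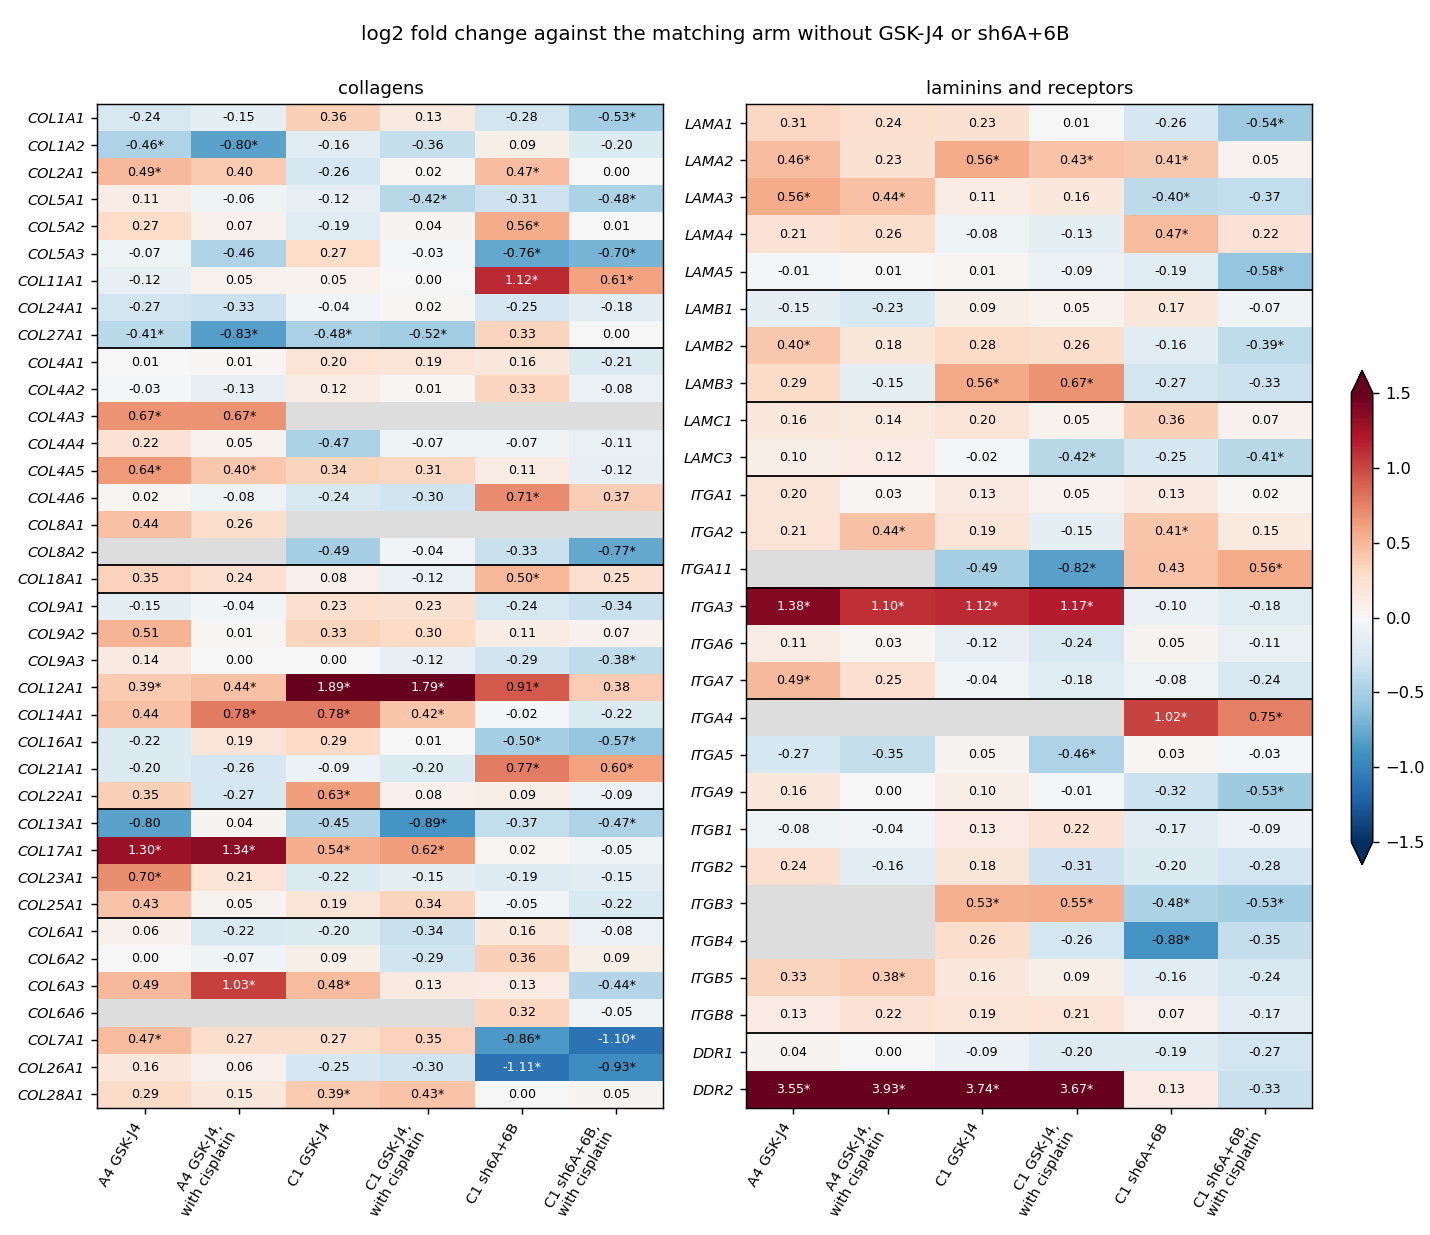
Heat map of log2 fold changes, with members in rows by role and 6 comparisons in columns: GSK-J4 in NT2/D1-A4 (A4) and in 2102EP-C1 (C1) and sh6A+6B in 2102EP-C1, each without and with cisplatin. Colour and printed value give the change, an asterisk marks a call and grey a gene not listed, and DDR2 is the darkest red in the GSK-J4 columns (3.55 and 3.74 without cisplatin) and pale in the knockdown column (0.13).

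The effect of GSK-J4 was also measured in cisplatin-treated cells, between the GSK-J4 plus cisplatin and the cisplatin arms. These libraries shared no sample with the first comparison, but both comparisons used 1 spread estimated from all 12 libraries. In NT2/D1-A4, 12 of 59 members were higher and 2 lower with GSK-J4, beside 12.8% and 7.84% of all genes, and in 2102EP-C1, 9 of 61 were higher and 6 lower, beside 10.5% and 8.82%. The log2 change had the same sign as without cisplatin in 47 of 59 and 48 of 61 members, and the share over all genes is not given. DDR2 was higher by 3.93 ± 0.15 (adjusted p = 1.7e-13), from −0.39, −0.80 and −0.67 to 3.38, 3.25 and 3.31, in NT2/D1-A4. In 2102EP-C1 it was higher by 3.67 ± 0.11 (adjusted p = 3.5e-19), from 0.76, 0.84 and 0.78 to 4.69, 4.42 and 4.28.

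ITGA3 was higher by 1.1 and 1.17 and COL17A1 by 1.34 and 0.62 in NT2/D1-A4 and 2102EP-C1, all with no overlap of the arms. COL12A1 was higher by 1.79 ± 0.11 in 2102EP-C1 and by 0.44 ± 0.11 (adjusted p = 0.0025) in NT2/D1-A4, where it was not called without cisplatin replicate 3 (0.37). LAMA2 was not called in NT2/D1-A4, at 6.18, 6.05 and 5.98 against 5.94, 5.84 and 5.74. In 2102EP-C1 LAMA2 was called higher, but was under the fold threshold without cisplatin replicate 1 (0.37) or replicate 1 of the arm given both agents (0.38). COL27A1 was lower by −0.83 ± 0.09 (adjusted p = 6.7e-07) in NT2/D1-A4, at 2.50, 2.67 and 2.61 against 3.37, 3.44 and 3.46, and by −0.52 in 2102EP-C1. COL1A2 was lower by −0.80 ± 0.07 (adjusted p = 1.9e-08) in NT2/D1-A4, at 3.93, 3.86 and 3.70 against 4.63, 4.65 and 4.59. The arms of both genes lay apart. COL14A1 was higher in NT2/D1-A4 by 0.78 ± 0.19 (adjusted p = 0.0018), at 1.53, 1.1 and 1.19 against 0.12, 0.52 and 0.83, and LAMB3 was higher in 2102EP-C1 by 0.67 ± 0.15 (adjusted p = 0.00048), at 1.73, 1.47 and 1.58 against 0.69, 1.14 and 0.93.

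The 6 members lower in 2102EP-C1 under cisplatin were COL13A1, ITGA11, COL27A1, ITGA5, COL5A1 and LAMC3. COL5A1 was under the fold threshold without cisplatin replicate 1 (−0.34), and LAMC3 without cisplatin replicate 1 (−0.37) or replicate 2 of the arm given both agents (−0.36). COL13A1, a membrane-spanning collagen, stood at 0.02, 0.14 and −0.39 with cisplatin and at −0.99, −1.0 and −0.90 with both agents, a difference of −0.89 ± 0.26 (adjusted p = 0.0059). ITGA11, a collagen-binding subunit, stood at −0.94, −0.92 and −0.95 and at −1.71, −1.73 and −1.83, a difference of −0.82 ± 0.28 (adjusted p = 0.017). Both were low genes, with at most 43 reads in any library, and neither pair of arms overlapped. ITGA5, the fibronectin receptor subunit, was lower by −0.46 ± 0.08 (adjusted p = 2.5e-05), at 3.16, 3.41 and 3.34 against 3.70, 3.88 and 3.71. COL6A3, a chain of type VI collagen, was higher in NT2/D1-A4 by 1.03 ± 0.33 (adjusted p = 0.016), at −0.95, −0.66 and −0.91 against −1.42, −1.81 and −2.38, on 4 to 21 reads, and was not called without cisplatin replicate 3 (0.77, adjusted p = 0.084) or the library given both agents numbered replicate 2 (0.94, adjusted p = 0.059).

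**Figure D3:**
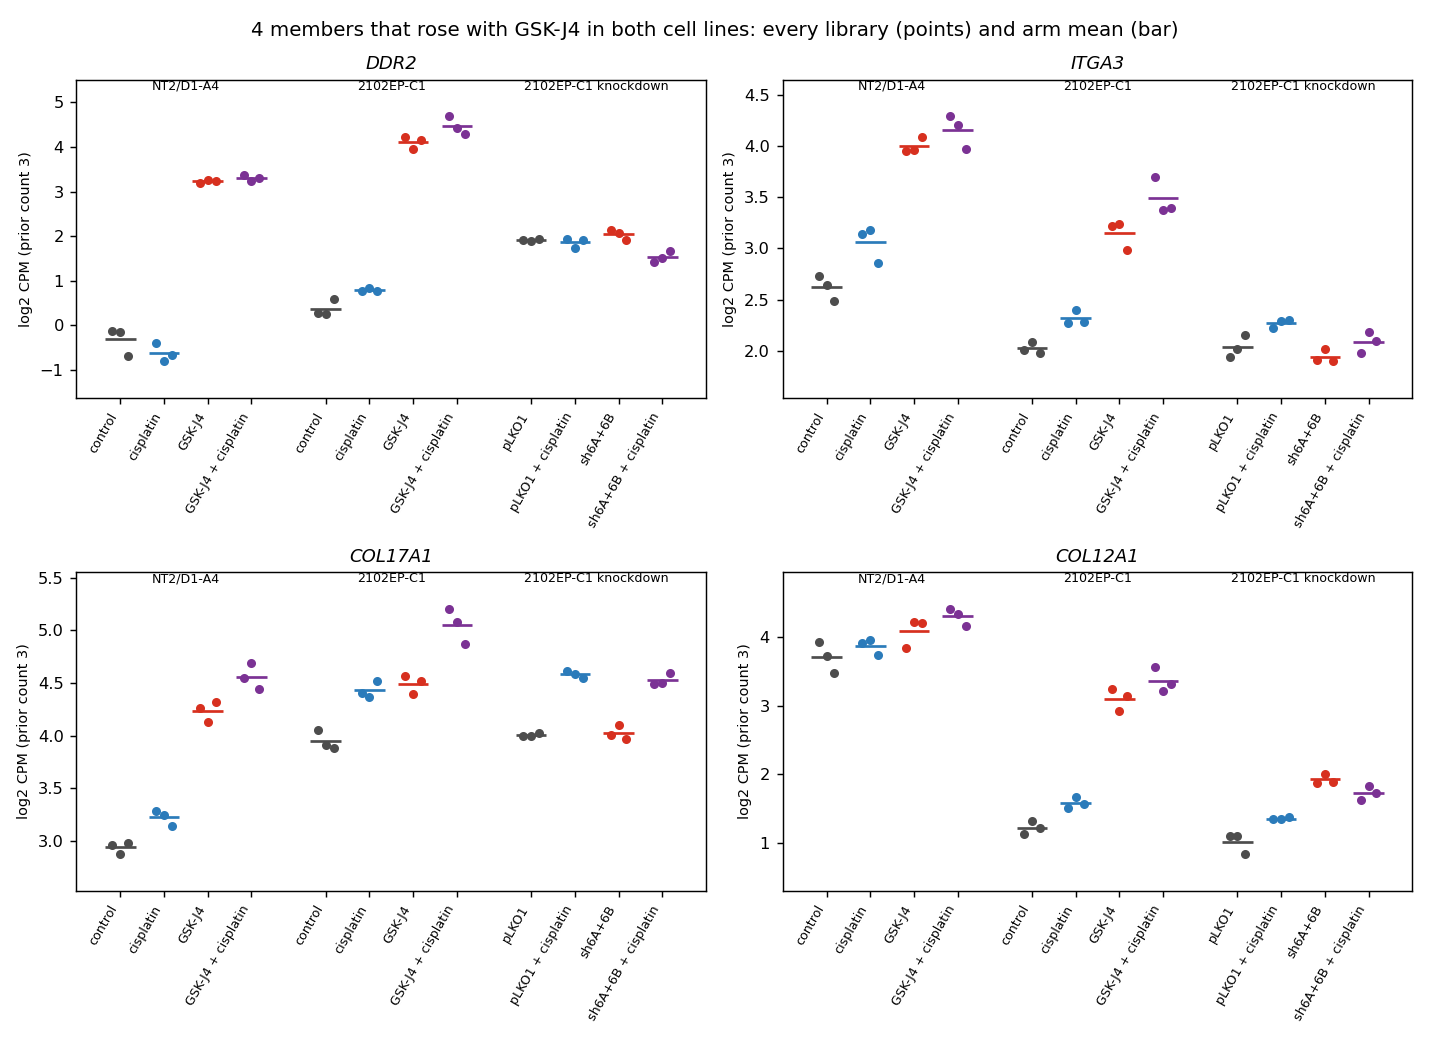
Log2 CPM of DDR2, ITGA3, COL17A1 and COL12A1 in each library (points) with the mean of each arm (bars), for control or pLKO1, cisplatin, GSK-J4 or sh6A+6B, and both, in the 3 experiments. DDR2 lies at −0.80 to 0.84 in the GSK-J4 experiments without the inhibitor and at 3.19 to 4.69 with it, while its 12 knockdown libraries stay between 1.41 and 2.14.

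With sh6A+6B alone, 11 of 63 members rose and 7 fell, beside 6.34% and 5.74% of all genes, and the median log2 change was 0.02 over the members and 0.00 over all genes. DDR2 stood at 1.92, 1.90 and 1.94 in pLKO1 and at 2.14, 2.08 and 1.92 with sh6A+6B, overlapping arms and a change of 0.13 ± 0.08 (adjusted p = 0.19). ITGA3 differed by −0.10 ± 0.07 (adjusted p = 0.25) and COL17A1 by 0.02 ± 0.04 (adjusted p = 0.75). The members that rose with GSK-J4 in 2102EP-C1 and with sh6A+6B were COL12A1 and LAMA2, or 16.7% of the first and 18.2% of the second list, beside 15.2% and 19.3% over all genes that rose, and ITGB3 rose in the first and fell in the second. The GSK-J4 and the knockdown effect differ in length of exposure, vector and depth, and the difference between them was not tested. KDM6B RNA, as given above, was higher with GSK-J4 and lower with sh6A+6B.

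COL12A1 stood at 1.1, 1.1 and 0.83 in pLKO1 and at 1.88, 2.01 and 1.89 with sh6A+6B, a rise of 0.91 ± 0.08 (adjusted p = 1.8e-09). LAMA2 stood at 6.20, 6.20 and 6.19 and at 6.64, 6.59 and 6.58, a rise of 0.41 ± 0.02 (adjusted p = 2.4e-13). Neither gene's sh6A+6B and pLKO1 arms overlapped. COL11A1, a fibrillar collagen of cartilage, stood at 2.09, 2.19 and 2.23 and at 3.42, 3.22 and 3.24, a rise of 1.12 ± 0.06 (adjusted p = 1.3e-13). COL21A1, a fibril-associated collagen, stood at 2.30, 2.46 and 2.43 and at 3.31, 3.14 and 3.04, a rise of 0.77 ± 0.06 (adjusted p = 4.6e-10). With GSK-J4 in the same line COL11A1 differed by 0.05 ± 0.15 (adjusted p = 0.84) and COL21A1 by −0.09 ± 0.11 (adjusted p = 0.59).

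ITGA4, an integrin subunit that binds fibronectin and VCAM1, was listed in this experiment only, on 16 to 56 reads. It stood at −2.24, −1.51 and −2.11 in pLKO1 and at −1.53, −0.77 and −0.50 with sh6A+6B, a rise of 1.02 ± 0.26 (adjusted p = 0.0023) with arms that overlapped by a narrow margin. The other members that rose were COL4A6, COL5A2, COL18A1, COL2A1, LAMA4 and ITGA2, by 0.41 to 0.71. COL2A1 was not called without pLKO1 replicate 3 (0.38, adjusted p = 0.076) or sh6A+6B replicate 2 (0.42, adjusted p = 0.058), and ITGA2 was not called without sh6A+6B replicate 1 (0.37).

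The members that fell were led by COL26A1, a collagen first described in testis and ovary, at 5.43, 5.33 and 5.36 in pLKO1 and 4.18, 4.3 and 4.3 with sh6A+6B, a change of −1.11 ± 0.04 (adjusted p = 2.8e-17). With GSK-J4 in 2102EP-C1 COL26A1 differed by −0.25 ± 0.06 (adjusted p = 0.00086), under the fold threshold. COL7A1 stood at 2.19, 2.19 and 2.22 and at 1.33, 1.22 and 1.46, a fall of −0.86 ± 0.07 (adjusted p = 3.1e-10). ITGB4, the hemidesmosome partner of ITGA6, stood at −0.54, −0.71 and −0.77 and at −1.79, −1.58 and −1.3, a fall of −0.88 ± 0.18 (adjusted p = 0.00025) on 23 to 59 reads. In none of these did the arms overlap, and COL5A3 and COL16A1 fell as well, by −0.76 and −0.50. LAMA3 fell by −0.40 ± 0.05 (adjusted p = 9.8e-08) and was not called without sh6A+6B replicate 1 (−0.38). ITGB3 fell by −0.48 ± 0.17 (adjusted p = 0.02) with overlapping arms, and was not called without pLKO1 replicate 1 (−0.37), pLKO1 replicate 2 (−0.43), sh6A+6B replicate 1 (−0.33) or sh6A+6B replicate 3 (−0.45).

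LAMC1, the most abundant member in these cells, stood at 10.10, 10.11 and 10.11 in pLKO1 and at 10.48, 10.48 and 10.43 with sh6A+6B. Its arms lay apart and it differed by 0.36 ± 0.02 (adjusted p = 3.7e-15), under the fold threshold. The summed level of the 11 laminin chains was 1455 to 1456 CPM in pLKO1 and 1765 to 1820 CPM with sh6A+6B. Of 8 listed mesenchymal markers, 6 rose and 1 fell in the same comparison, beside 6.34% and 5.74% of all genes. Their summed level went from 159 to 165 CPM to 228 to 238 CPM. The part of this in the collagen and laminin changes was not tested.

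Between the sh6A+6B plus cisplatin and the pLKO1 plus cisplatin arms, which share no library with the comparison above, 4 members were higher and 16 lower, beside 6.4% and 8.77% of all genes. The median log2 difference was −0.17 over the members and 0.00 over all genes. COL7A1 was lower by −1.1 ± 0.07 (adjusted p = 1.9e-12), at 1.55, 1.48 and 1.49 against 2.60, 2.53 and 2.70, and COL26A1 by −0.93 ± 0.04. COL8A2, a short-chain network collagen, was lower by −0.77 ± 0.14 (adjusted p = 6.3e-05), at −0.66, −0.24 and −0.77 against 0.07, 0.31 and 0.26. The arms of these genes lay apart. COL5A3 (−0.70), COL16A1 (−0.57), ITGB3 (−0.53), ITGA9 (−0.53), COL1A1 (−0.53), COL5A1 (−0.48) and COL6A3 (−0.44) were lower too. COL13A1 was lower by −0.47 and was not called without replicate 2 of the pLKO1 plus cisplatin (−0.34) or of the sh6A+6B plus cisplatin arm (−0.36). LAMC3 was lower by −0.41 and was under the fold threshold without pLKO1 plus cisplatin replicate 3 (−0.35) or sh6A+6B plus cisplatin replicate 1 (−0.37). LAMB2, at −0.39, was under it without pLKO1 plus cisplatin replicate 2 (−0.36) or sh6A+6B plus cisplatin replicates 1 and 3 (−0.37 each), and COL9A3, at −0.38, without pLKO1 plus cisplatin replicates 2 (−0.38) and 3 (−0.36) or sh6A+6B plus cisplatin replicates 1 (−0.35) and 2 (−0.38), and both were under it when scaled by library size only.

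Among laminin alpha chains LAMA5 and LAMA1 fell. LAMA5 was lower by −0.58 ± 0.04 (adjusted p = 1.7e-11), at 4.12, 4.25 and 4.24 against 4.76, 4.82 and 4.79, and LAMA1 by −0.54 ± 0.04 (adjusted p = 2.9e-11), at 3.90, 4.01 and 4.1 against 4.56, 4.53 and 4.55. COL11A1 and COL21A1 remained higher with sh6A+6B, by 0.61 ± 0.06 and 0.60 ± 0.06. ITGA4 was higher by 0.75 ± 0.26 (adjusted p = 0.016) and was not called without pLKO1 plus cisplatin replicate 3 (0.68, adjusted p = 0.055) or sh6A+6B plus cisplatin replicate 3 (0.48, adjusted p = 0.14). ITGA11 was higher by 0.56 ± 0.19 (adjusted p = 0.012), at −0.40, −0.47 and 0.07 against −0.84, −0.89 and −0.76, and was not called without sh6A+6B plus cisplatin replicate 3 (0.39, adjusted p = 0.101).

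The type IV collagen genes lie in head-to-head pairs, and the partners did not always move together. COL4A1 and COL4A2, which form the main type IV trimer, stood at 6.72, 6.63 and 6.63 and at 6.55, 6.46 and 6.45 in NT2/D1-A4 control cells, and at 6.64, 6.68 and 6.67 and at 6.43, 6.47 and 6.48 with GSK-J4. They differed by 0.01 ± 0.05 and −0.03 ± 0.07. In 2102EP-C1 the changes with GSK-J4 were 0.20 ± 0.04 for COL4A1, from 5.47, 5.51 and 5.51 to 5.65, 5.72 and 5.71, and 0.12 ± 0.05 for COL4A2, from 4.97, 4.88 and 4.9 to 5.07, 5.06 and 4.96. With sh6A+6B they were 0.16 ± 0.03 for COL4A1, from 5.55, 5.55 and 5.45 to 5.70, 5.67 and 5.67, and 0.33 ± 0.03 for COL4A2, from 5.01, 5.01 and 5.02 to 5.33, 5.37 and 5.32. None of these passed the fold threshold.

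COL4A5 and COL4A6, on the X chromosome, differed from each other in direction or size in each experiment. COL4A5 rose in NT2/D1-A4 from 5.44, 5.43 and 5.39 to 6.13, 6.04 and 5.99 with GSK-J4, by 0.64 ± 0.05 (adjusted p = 4.0e-09), while COL4A6, at 5.41, 5.32 and 5.37 and at 5.45, 5.34 and 5.38, differed by 0.02 ± 0.05 (adjusted p = 0.74). In 2102EP-C1 COL4A5 differed by 0.34 ± 0.04, from 5.17, 5.15 and 5.12 to 5.54, 5.45 and 5.47, and COL4A6 by −0.24 ± 0.06, from 3.96, 4.0 and 3.91 to 3.64, 3.66 and 3.83, both under the fold threshold with arms that lay apart. With sh6A+6B the pattern was turned around. COL4A6 rose from 4.21, 4.18 and 4.17 to 4.94, 4.95 and 4.81, by 0.71 ± 0.03 (adjusted p = 3.5e-14), and COL4A5, from 5.30, 5.33 and 5.36 to 5.47, 5.43 and 5.42, differed by 0.11 ± 0.03. The difference between partners was not tested.

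The pair COL4A3 and COL4A4 was near the filter. COL4A3, listed in NT2/D1-A4 only on 7 to 22 reads, stood at −1.5, −2.01 and −1.65 in control cells and at −1.11, −0.93 and −1.11 with GSK-J4, a rise of 0.67 ± 0.26 (adjusted p = 0.037). The call was lost without control replicate 2 (adjusted p = 0.14), control replicate 3 (0.056) or any of the GSK-J4 libraries (0.061, 0.105 and 0.066), and also in a fit on the 2 compared arms alone (adjusted p = 0.058). COL4A4, at −0.26, −0.74 and −0.54 and at −0.14, −0.39 and −0.36, differed by 0.22 ± 0.25 (adjusted p = 0.51) with overlapping arms. In the 2102EP-C1 experiments COL4A4 lay between −1.5 and −0.24 in every library.

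**Figure D4:**
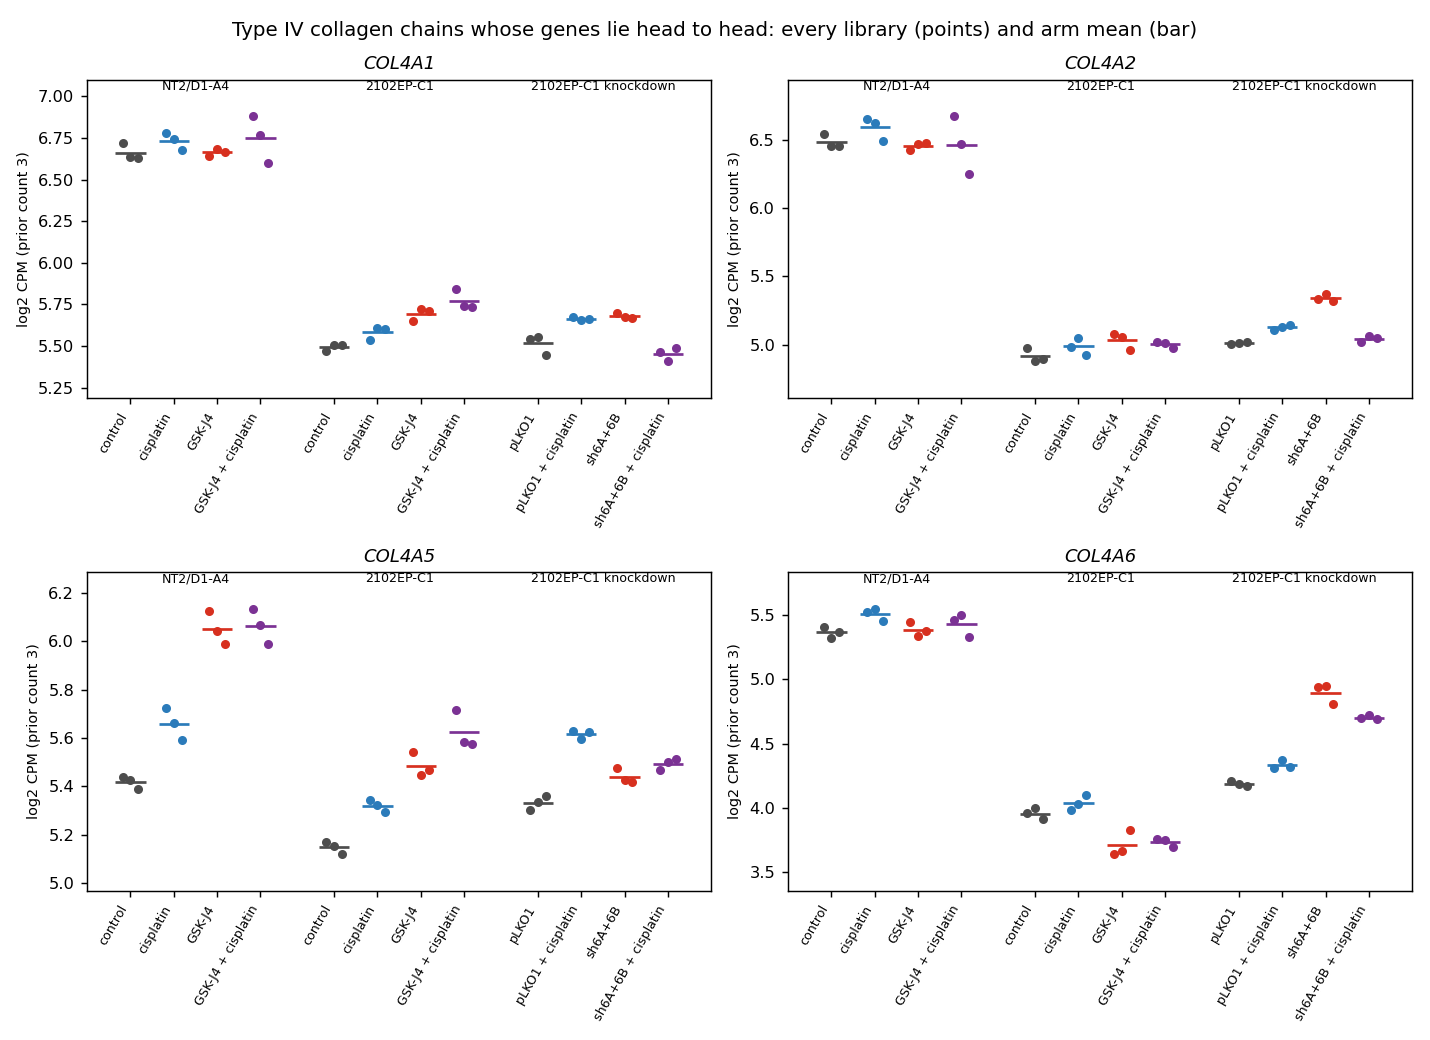
Log2 CPM of COL4A1, COL4A2, COL4A5 and COL4A6 in each library (points) with the mean of each arm (bars), with the arms of the 3 experiments along the horizontal axis. COL4A5 rises with GSK-J4 in NT2/D1-A4 (0.64) beside a flat COL4A6 (0.02), and COL4A6 rises with sh6A+6B (0.71) beside COL4A5 (0.11).

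Cisplatin alone moved few members, and all of those called were higher. In NT2/D1-A4, 3 of 59 rose and 0 fell, beside 2.05% and 0.396% of all genes. In 2102EP-C1, 4 of 61 rose and 0 fell, beside 0.881% and 0.188%, and in pLKO1 cells 5 of 63 rose and 0 fell, beside 2.53% and 0.462%. The medians over the members were 0.12, 0.14 and 0.13 and those over all genes 0.00, and 45 of 59, 49 of 61 and 50 of 63 members had a positive change. At an unadjusted p under 0.05, 20, 28 and 36 members differed, and voom with limma called 3, 3 and 5.

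COL17A1 rose in both 2102EP-C1 experiments. It stood at 4.40, 4.36 and 4.52 with cisplatin against 4.05, 3.91 and 3.88 without, a rise of 0.48 ± 0.07, and in pLKO1 cells at 4.62, 4.58 and 4.55 against 4.0, 4.0 and 4.02, a rise of 0.58 ± 0.04 (adjusted p = 3.8e-11). The arms lay apart in both. In NT2/D1-A4 it differed by 0.29 ± 0.07, at 3.28, 3.24 and 3.14 against 2.96, 2.87 and 2.98, and was not called.

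DDR2 and LAMA1 rose in 2102EP-C1 as well, and both calls depended on single libraries. DDR2 rose by 0.42 ± 0.11 (adjusted p = 0.026) and was not called without any of control replicates 1 and 2 and the 3 cisplatin libraries (adjusted p = 0.059 to 0.14), nor by voom (adjusted p = 0.37) or on the 2 compared arms alone (adjusted p = 0.092). LAMA1, an early embryonic laminin alpha chain, rose by 0.40 ± 0.07 from 3.40, 3.33 and 3.50 to 3.82, 3.88 and 3.72, and stood at 0.36, under the fold threshold, without control replicate 2 or cisplatin replicate 2. The number called was 2 without control replicate 1, 1 without control replicate 2 and 1 without cisplatin replicate 2.

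In NT2/D1-A4 COL1A2 rose by 0.45 ± 0.07 (adjusted p = 0.00035), to 4.63, 4.65 and 4.59. COL23A1 rose by 0.53 ± 0.13 (adjusted p = 0.016), to 1.35, 1.34 and 1.18, and was not called without control replicate 3 (0.45, adjusted p = 0.071), cisplatin replicate 1 (0.50, adjusted p = 0.054) or cisplatin replicate 2 (0.50, adjusted p = 0.062). ITGA3 rose by 0.44 ± 0.10, to 3.14, 3.18 and 2.85, and was under the fold threshold without control replicate 3 (0.37) or cisplatin replicate 2 (0.38). The number called was 1 without cisplatin replicate 2 and 5 without cisplatin replicate 3.

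In pLKO1 cells COL6A3 rose by 0.47 ± 0.08 (adjusted p = 3.5e-05), from 1.09, 1.2 and 1.15 to 1.55, 1.69 and 1.61. COL7A1 rose by 0.41 ± 0.07, and by 0.37 without the pLKO1 plus cisplatin library numbered replicate 3. LAMA4 rose by 0.38 ± 0.07, and was under the fold threshold without pLKO1 replicate 3 (0.37) or pLKO1 plus cisplatin replicate 2 (0.34). COL8A2 rose by 0.40 ± 0.14 (adjusted p = 0.031), and was not called without pLKO1 replicate 1 (adjusted p = 0.057), pLKO1 replicate 3 (0.13), pLKO1 plus cisplatin replicate 2 (0.11) or pLKO1 plus cisplatin replicate 3 (0.087). The number called was 3 without pLKO1 replicate 3, pLKO1 plus cisplatin replicate 2 or pLKO1 plus cisplatin replicate 3.

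After GSK-J4, cisplatin moved 0 of 59 members in NT2/D1-A4 by limma-trend, beside 0.158% and 0.219% of all genes that rose and fell, with 9 at an unadjusted p under 0.05 and 0 by voom. The count was 1 without GSK-J4 replicate 2 and 2 without replicate 3 of the arm given both agents. In 2102EP-C1 COL17A1 alone rose, beside 0.916% and 1.31%, by 0.56 ± 0.07 to 5.20, 5.09 and 4.87 from 4.56, 4.39 and 4.52. The count there was 2 without any GSK-J4 library or without replicates 1 or 2 of the arm given both agents, and 3 without its replicate 3. Replicates were less alike in some of these arms. The squared difference between 2 replicates, relative to counting noise, was 3.76 to 9.87 in the NT2/D1-A4 arm given both agents. In the other arms of that line it was 1.72 to 3.13. In 2102EP-C1 it was 5.57 and 7.29 for the pairs with GSK-J4 replicate 3, and 1.46 to 3.75 for the other pairs.

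In sh6A+6B cells cisplatin raised 1 member and lowered 4, beside 2.48% and 1.04% of all genes. COL17A1 rose by 0.51 ± 0.04, from 4.0, 4.1 and 3.96 to 4.50, 4.50 and 4.60. COL2A1, the main collagen of cartilage, fell by −0.72 ± 0.16 (adjusted p = 6.0e-04), from −0.38, −0.22 and −0.32 to −0.98, −1.09 and −1.01. DDR2 fell by −0.52 ± 0.08 (adjusted p = 9.0e-06), from 2.14, 2.08 and 1.92 to 1.41, 1.5 and 1.67. The arms of these genes lay apart.

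COL11A1 fell by −0.38 ± 0.06 (adjusted p = 9.8e-06), to 2.92, 2.92 and 2.89, and was under the fold threshold without sh6A+6B replicate 1 (−0.32) or sh6A+6B plus cisplatin replicate 3 (−0.37) and when scaled by library size only (−0.38). COL6A6, a type VI collagen chain on 27 to 49 reads, fell by −0.50 ± 0.18 (adjusted p = 0.029), from −0.79, −0.63 and −0.86 to −1.61, −1.09 and −1.08, and was not called without sh6A+6B replicate 1 (adjusted p = 0.052), sh6A+6B replicate 2 (0.104) or sh6A+6B plus cisplatin replicate 1 (0.185). The number called was 3 without sh6A+6B replicate 1.

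The interaction term tests whether the cisplatin effect differed between pretreated and other cells. In NT2/D1-A4 limma-trend called 0 of 59 members, with 9 at an unadjusted p under 0.05 and 0 by voom, beside 0% of all genes above and 0.0426% below. In 2102EP-C1 it called 1, ITGA5, beside 0.194% and 0.663%. ITGA5 stood at 3.59, 3.48 and 3.60 in control cells, 3.70, 3.88 and 3.71 with cisplatin, 3.68, 3.68 and 3.44 with GSK-J4 and 3.16, 3.41 and 3.34 with both. Its interaction was −0.51 ± 0.11 (adjusted p = 0.015), and was not called without control replicate 2 (adjusted p = 0.056), cisplatin replicate 2 (0.067) or GSK-J4 replicate 1 (0.062). The number called was 0 without any of those, 2 without cisplatin replicate 1, GSK-J4 replicate 2 or replicate 3 of the arm given both agents, and 3 without GSK-J4 replicate 3.

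With sh6A+6B the interaction was called for 7 of 63 members, all with a lower cisplatin effect in the knockdown cells, beside 1.09% of all genes with a higher and 2.67% with a lower effect. The median was −0.18 over the members and 0.00 over all genes, and 54 of 63 members lay below 0. COL6A3 (−0.57 ± 0.11, adjusted p = 0.00019) rose with cisplatin in pLKO1 cells and stood at 1.22, 1.18 and 1.14 with cisplatin against 1.33, 1.22 and 1.27 without in sh6A+6B cells. COL5A2, a fibrillar collagen (−0.55 ± 0.08, adjusted p = 3.6e-06), went from 2.42, 2.32 and 2.43 to 2.79, 2.65 and 2.68 in pLKO1 cells and from 3.01, 2.93 and 2.91 to 2.68, 2.69 and 2.78 in sh6A+6B cells. COL12A1 (−0.54 ± 0.12, adjusted p = 0.00066) went from the pLKO1 values given above to 1.34, 1.34 and 1.37, and in sh6A+6B cells from 1.88, 2.01 and 1.89 to 1.62, 1.82 and 1.73.

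COL11A1 (−0.52 ± 0.08, adjusted p = 2.5e-05) reached 2.23, 2.35 and 2.34 with cisplatin in pLKO1 cells and fell in sh6A+6B cells. DDR2 had an interaction of −0.46 ± 0.11 (adjusted p = 0.0021), with pLKO1 plus cisplatin libraries at 1.93, 1.73 and 1.92. COL4A2 (−0.41 ± 0.04, adjusted p = 4.8e-09) reached 5.11, 5.13 and 5.14 in pLKO1 plus cisplatin and 5.02, 5.06 and 5.05 in sh6A+6B plus cisplatin cells, and COL4A1, at −0.38 ± 0.04, lay just under the fold threshold. LAMA5 (−0.40 ± 0.06, adjusted p = 9.1e-06) was under it without pLKO1 replicate 2 (−0.36), sh6A+6B replicate 2 (−0.37), sh6A+6B replicate 3 (−0.37) or sh6A+6B plus cisplatin replicate 1 (−0.35). Of 15 basement membrane partners, 7 had a lower and 0 a higher effect in the same test.

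**Figure D5:**
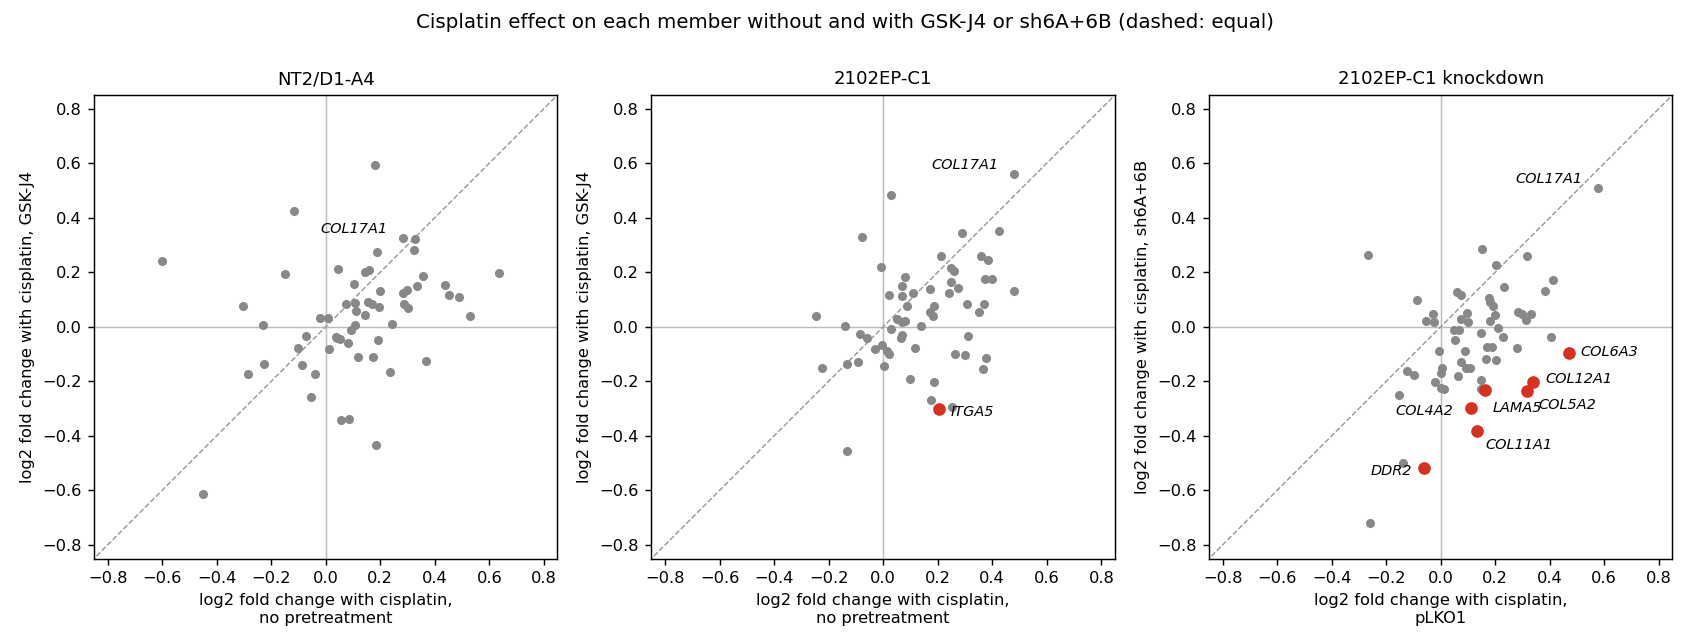
Log2 change with cisplatin in pretreated or knockdown cells (vertical axis) against that in control or pLKO1 cells (horizontal axis) for every member (points), with a dashed line of equality, in the 3 experiments, and with members called in the interaction test in red. In the knockdown panel 54 of 63 members lie below the line, and COL17A1 lies high on both axes at 0.58 and 0.51.

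The genes around the collagens and laminins were counted by lists of partners. Of all genes, 13.8% rose with GSK-J4 in NT2/D1-A4, 7.79% with GSK-J4 in 2102EP-C1 and 6.34% with sh6A+6B, and the counts of enzymes and focal adhesion genes in NT2/D1-A4, 4 of 26 and 2 of 20, lay near or below such a share. Of 15 basement membrane partners, 5 rose and 0 fell with GSK-J4 in NT2/D1-A4, 5 rose and 0 fell in 2102EP-C1, and 2 rose and 1 fell with sh6A+6B. HSPG2 (perlecan) rose by 0.50 ± 0.11 and 0.50 ± 0.10 and FBN1 (fibrillin-1) by 0.80 ± 0.09 and 1.0 ± 0.07 in the 2 lines. FRAS1, which anchors epithelium to the basement membrane, rose by 1.03 ± 0.11, 0.85 ± 0.10 and 0.64 ± 0.05 in the 3 comparisons. PXDN, the enzyme that crosslinks type IV collagen, fell by −1.23 ± 0.04 (adjusted p = 7.8e-18) with sh6A+6B and differed by −0.07 and 0.07 with GSK-J4.

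Of 29 collagen-modifying and folding enzymes, 26, 27 and 27 were listed, and 4 rose and 1 fell, 6 rose and 0 fell, and 2 rose and 1 fell. P4HA2, a collagen prolyl hydroxylase, rose by 1.12 and 0.67 with GSK-J4, and the crosslinking oxidase LOX rose by 0.73 ± 0.19 with GSK-J4 in 2102EP-C1 and by 1.07 ± 0.11 with sh6A+6B. Among 14 other matrix receptors, 6 and 3 rose with GSK-J4 and 2 with sh6A+6B, and none fell. The alpha V integrin subunit ITGAV, whose symbol the choice of members left out, rose by 0.60 ± 0.04 and 0.64 ± 0.06 with GSK-J4 and differed by −0.06 with sh6A+6B, and the hyaluronan receptor CD44 rose in all 3, by 0.46, 0.41 and 0.59. Of 20 matrix proteases and inhibitors, 13, 15 and 15 were listed, and 5 rose and 0 fell, 5 rose and 1 fell, and 2 rose and 2 fell. Of 21 focal adhesion adaptors and kinases, 2 rose and 1 fell, 2 rose and 0 fell, and 1 rose and 1 fell.

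Other programs moved beside these changes. Of all genes, 13.8% rose and 6.48% fell with GSK-J4 in NT2/D1-A4 and 7.79% rose and 3.12% fell in 2102EP-C1. With sh6A+6B 6.34% rose. With GSK-J4, 13 of 14 integrated stress response genes rose in each line, and 16 and 9 of 20 p53 target genes, against 3 and 2 with sh6A+6B. All 3 and 4 listed trophoblast markers rose with GSK-J4, with summed levels of 9.11 to 11.2 CPM in control and 16.8 to 19.7 CPM in GSK-J4 libraries of NT2/D1-A4 and 8.30 to 9.15 against 14.4 to 15.5 CPM in 2102EP-C1. Of the listed endoderm markers, 4 of 7 rose and 1 fell in NT2/D1-A4 and 3 of 6 rose in 2102EP-C1. Of 14 listed embryonal carcinoma markers, 2 fell and 0 rose in each line, and the summed levels given above did not overlap between control and GSK-J4 libraries. Of 8 listed mesenchymal markers, 2 rose and 2 fell in NT2/D1-A4 and 1 rose and 1 fell in 2102EP-C1. Their summed level was lower with GSK-J4 than in control libraries, at 1053 to 1118 against 1273 to 1329 CPM in NT2/D1-A4. In 2102EP-C1 it was 135 to 146 against 154 to 157 CPM. Of 8 neural markers, 6 and 5 were listed. They summed to 330 to 365 against 367 to 414 CPM in NT2/D1-A4, and the sums overlapped in 2102EP-C1. Such shifts were not limited to GSK-J4. The embryonal carcinoma sum was 12769 to 12905 CPM with sh6A+6B against 13495 to 13557 in pLKO1, and the endoderm sum 38.9 to 41.2 against 30.3 to 32.0. The neural sum was 458 to 479 CPM with sh6A+6B against 535 to 540 in pLKO1. With cisplatin alone the embryonal carcinoma sum was 13734 to 13888 CPM in 2102EP-C1, below control, and overlapped control in NT2/D1-A4. The part of these in the changes of collagens, laminins and receptors was not tested.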

How the data were processed

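RNA from 36 libraries of 2 cell lines was sequenced as stranded, poly(A)-selected mRNA, in biological triplicate per the labels. The methods of the study name Trimmomatic for trimming, STAR for alignment to GRCh38.p14 and featureCounts for counting, after which the authors removed genes under their minimum CPM and normalized by TMM. The strand setting of counting and the tool versions are not given in the sources used here. The deposited values are log2 CPM at TMM-scaled library sizes with a prior count of 3. From them whole reads were recovered (within 0.05 of a whole read for values under 50 reads), which gave depths of 26.8 to 100.9 M reads. The precision rests on 3 libraries an arm, and reads are given for some of the low genes.

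Each experiment was fitted over all of its genes and 12 libraries with limma 3.58.1 (R 4.3.3), limma-trend with empirical Bayes moderation and Benjamini-Hochberg adjustment over all genes. Calls needed more than a 1.3-fold change together with an adjusted p below 0.05. Fold changes on the deposited scale understate the change of low genes because of the prior count. The fits were also run on simulated counts with a single fixed spread. Changes larger than the fold threshold were planted there, only in genes that were not low. That run therefore does not cover low genes, noisier arms or changes near the fold threshold. Tables were made in pandas 2.3.3 and numpy 2.4.6 and plots in matplotlib 3.10.9, under Python 3.11.15. Library values are given for the 3 largest rises and falls among called members with arms apart in each comparison, for members called alike with GSK-J4 in both lines, for the type IV pairs, ITGB1, DDR1 and DDR2, and for the most abundant members per kilobase. Others were added after their values were seen. The members and lists were chosen with earlier results of these data known. Alternatives were a filter at a mean log2 value over 1, the compared arms only, a replicate block, a prior count of 0.5, library size only, voom, and leaving out each library. Per the labels the replicate numbers name no shared culture or day. Some genes are not reported here.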

Additional observations from a re-analysis of the deposited data

Results flagged for a closer look

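Tested differences in the cisplatin effect between pretreated and other cells, each from the interaction term of limma-trend, stood out for 8 member results. In 2102EP-C1 the value was −0.51 for ITGA5 (adjusted p = 0.015). Between sh6A+6B and pLKO1 cells it was −0.54 for COL12A1 (adjusted p = 0.00066), −0.46 for DDR2 (0.0021), −0.52 for COL11A1 (2.5e-05), −0.55 for COL5A2 (3.6e-06), −0.40 for LAMA5 (9.1e-06), −0.41 for COL4A2 (4.8e-09) and −0.57 for COL6A3 (0.00019). ITGA5 was not called without control replicate 2 (adjusted p = 0.056), cisplatin replicate 2 (0.067) or GSK-J4 replicate 1 (0.062), and LAMA5 was under the fold threshold without pLKO1 replicate 2 (−0.36), sh6A+6B replicates 2 and 3 (−0.37 each) or sh6A+6B plus cisplatin replicate 1 (−0.35).

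For a few members every GSK-J4 library lay on one side of its controls in NT2/D1-A4 and on the other side in 2102EP-C1. The difference between the lines was not tested, and the share of all genes with such a pattern is not given. Without cisplatin, COL1A1 changed by −0.24 in NT2/D1-A4 and 0.36 in 2102EP-C1, ITGB1 by −0.082 and 0.13, LAMB1 by −0.15 and 0.089, ITGA6 by 0.11 and −0.12, and COL26A1 by 0.16 and −0.25. With cisplatin, ITGA2, a collagen-binding subunit, changed by 0.44 and −0.15 and ITGB1 by −0.044 and 0.22. ITGA2 passed both thresholds in NT2/D1-A4, though not without cisplatin replicate 3 (0.34), and none of the other values passed the fold threshold. In NT2/D1-A4 the limma-trend adjusted p was 0.063 for COL1A1 without cisplatin and 0.25 for ITGB1 with cisplatin, neither under 0.05.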

How the results depend on the processing

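The members called kept their direction under every alternative run, and 78 of the 122 calls were kept under all of them. With genes filtered at a mean log2 value over 1, the count for sh6A+6B with cisplatin was 13 in place of 20 and that for cisplatin in sh6A+6B cells 3 in place of 5, since fewer members were tested, and 93 of 93 calls that could be tested were kept. Calls were lost in 4 of 114 cases with the compared arms only, 4 of 122 with library size only, 1 of 122 with a prior count of 0.5 and 2 of 122 with voom. Leaving out 1 library lost 114 of 1464. The counts then ranged, without and with cisplatin, from 11 to 19 and 11 to 14 for GSK-J4 in NT2/D1-A4, from 11 to 14 and 11 to 16 for GSK-J4 in 2102EP-C1, and from 16 to 19 and 18 to 21 for sh6A+6B. Cisplatin counts ranged from 1 to 5 and 0 to 2, from 1 to 5 and 1 to 3, and from 3 to 6 and 3 to 5 in untreated and pretreated or knockdown cells of the 3 experiments, and interaction counts from 0 to 0, 0 to 3 and 7 to 9. KDM6A ranged from −1.04 to −0.99 and KDM6B from −1.07 to −0.95.

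Same-numbered libraries did not in general deviate together, with median correlations of −0.016, −0.0027 and −0.0029 in the 3 experiments. Some pairs did, with 3, 1 and 5 of 18 correlated over 0.1 and highest values of 0.28, 0.10 and 0.31. A replicate block kept 122 of 122 calls and gave 17, 13 and 18 members for the pretreatment comparisons without cisplatin. The lines were compared with no test, and depth limits genes on few reads, such as COL4A3, COL6A6, ITGA4 and ITGA11.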
